A study of Homo sapiens with 6 samples.

Results

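The density of PAI-1 ChIP peaks along the chromosomes was compared between UM-UC-3 and RT112, 2 established lines of human bladder carcinoma. The autosomes, chromosomes 1 to 22, were divided into 2897 bins of 1 Mb, of which 2694 had at least 50% called (non-N) reference bases and were used, and into 40 chromosome arms. In each bin the peaks of a library were counted by their midpoints and divided by the autosomal total of that library. The result, here called relative density, is given per 100000 autosomal peaks, for arms also per Mb of called bases. The labels give no treatment, and every library came from chromatin precipitated with the same anti-PAI-1 antibody, 2 biological replicates per cell line. The cells were obtained from a pathology core and authenticated by DNA fingerprinting, according to the methods of the study. Passage is not given in the sources used here. The 2 input libraries were not analysed here, so a regional difference in peaks could not be set against one in input.

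PAI-1 is a secreted inhibitor of the plasminogen activators. ChIP-seq recovers DNA in proportion to how much of it the cells hold as well as to how much of it is bound. Bladder carcinomas often carry gains of 5p, 8q and 20q and losses of 4q, 8p and 9p. RT112 has been described with a homozygous deletion at CDKN2A and with a fusion of FGFR3 to TACC3, and UM-UC-3 with a deletion of CDKN2A. Copy number was not measured in these libraries. Each library is scaled to its own total, so a relative density is a share: an arm with a larger share lowers the shares of the others.

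RT112 had 90512 and 56546 autosomal peaks in its 2 libraries and UM-UC-3 had 104092 and 108579. The median bin held 33 and 20 peaks in the RT112 libraries, against 38 and 39 in those of UM-UC-3. After scaling, the median relative density was 36.5 and 35.4 in RT112 against 36.5 and 35.9 in UM-UC-3. RT112 replicate 2 thus had the fewest peaks behind each value: 1 peak was worth 1.77 units of relative density in it, against 1.105 in RT112 replicate 1 and 0.961 and 0.921 in UM-UC-3. Although UM-UC-3 has been described as lacking CDKN2A, both of its libraries had a peak inside the gene, with the values given below. The identity of the cells behind these libraries could not be checked from peak lists, and every UM-UC-3 value here is one of the libraries labelled UM-UC-3.

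The peak with the highest score in the longest lowered run of bins, described below, is shown first. It is an example from a region that differed between the cell lines and, as the top peak, does not stand for the run. One more, from a stretch of 9p that held no RT112 peak, was chosen after its values were seen. Sequences are from the plus strand of GRCh37, the hg19 assembly, and capitals mark the longest run of purines or of pyrimidines.
chr20:30573224-30573523, RT112: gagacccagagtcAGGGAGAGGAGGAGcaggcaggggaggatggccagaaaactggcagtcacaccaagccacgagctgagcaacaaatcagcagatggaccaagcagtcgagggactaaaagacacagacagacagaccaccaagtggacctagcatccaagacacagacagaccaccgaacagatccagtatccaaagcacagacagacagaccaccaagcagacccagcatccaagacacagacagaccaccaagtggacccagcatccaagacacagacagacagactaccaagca
chr9:23461162-23461461, UM-UC-3: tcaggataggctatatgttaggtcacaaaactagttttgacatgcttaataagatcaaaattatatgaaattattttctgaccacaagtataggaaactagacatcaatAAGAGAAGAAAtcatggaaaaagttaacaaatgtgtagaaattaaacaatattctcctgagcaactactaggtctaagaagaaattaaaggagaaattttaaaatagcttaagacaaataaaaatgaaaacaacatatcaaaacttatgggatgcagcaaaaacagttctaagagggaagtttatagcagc
The score is taken to be the −log10 of a p or q value from MACS2, since its type is not given in the sources used here. The chromosome 20 peak scored 59.7 and 29.4 in the RT112 libraries and had no counterpart in UM-UC-3. It lies in an intron of XKR7. The bases shown had a GC content of 54.3%, against a mean of 42.1% over the bins of its run. The chromosome 9 peak scored 21.9 and 11.2 in the UM-UC-3 libraries and had no counterpart in RT112. It lies in AT-rich DNA with a GC content of 29.3%, overlaps no annotated gene and is 229 kb from ELAVL2. The chromosome 20 bases shown repeat similar motifs, and how well reads can be placed in either peak was not tested.

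Most arms differed between the cell lines far beyond the spread of the replicates, and the same arms stood out in both libraries of a line. UM-UC-3 had a higher relative density on 17 of 40 arms (42.5%) and a lower one on 15 arms (37.5%) at an adjusted p-value under 0.05 (limma on log2 values, Benjamini-Hochberg adjustment over the 40 arms). With 2 libraries against 2, an exact permutation test of a single arm has a smallest possible two-sided p-value of 0.333, so the calls rest on a spread estimated over all arms. The arms that were not called were 1q, 9q, 10p, 10q, 13q, 15q, 17p and 18p, and their log2 differences were at most 0.061 in size. The log densities of arms correlated with r = 0.99 between the replicates of each line and with r = 0.47 between the lines, over 40 arms that share the base composition of the genome.

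**Figure D1:**
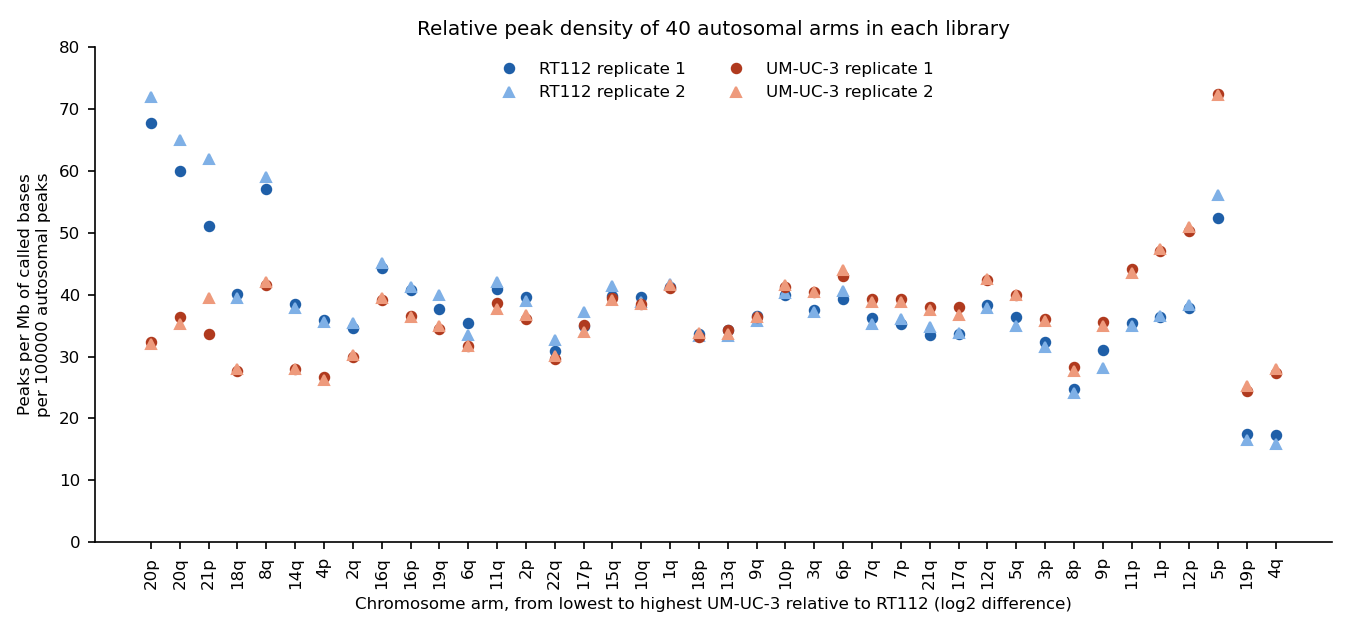
Each point is the relative density of an arm (peaks per Mb of called bases per 100000 autosomal peaks, vertical axis) in 1 library, with arms ordered from the most lowered to the most raised in UM-UC-3. Arm 20p lies near 70 in both RT112 libraries and near 32 in both UM-UC-3 libraries, and 5p near 72 in both UM-UC-3 libraries.

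Chromosome 20 had the largest difference. On 20p the relative density was 67.7 and 72.0 in the RT112 libraries, against 32.4 and 32.0 in those of UM-UC-3. The short arm of chromosome 20 was thereby the densest arm of RT112, and its density in UM-UC-3 was 2.17 times lower, a log2 difference of -1.09 ± 0.03 (SE; limma adjusted p = 1.6e-10). Every one of its 26 bins was called lower. On 20q, which holds BCL2L1, an inhibitor of apoptosis, and AURKA, a mitotic kinase, the density was 60.0 and 65.0 in RT112 against 36.4 and 35.2 in UM-UC-3. Its log2 difference was -0.79 ± 0.04 (SE; limma adjusted p = 1.0e-08), with 25 of 33 bins called lower and 0 higher. On both arms the RT112 libraries lay above both UM-UC-3 libraries.

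Next in size among the lowered arms were 21p, 18q, 8q and 14q. The other 9 lowered arms, 4p among them, had log2 differences from -0.42 to -0.09. On 8q, which carries MYC, the relative density was 57.1 and 59.0 in RT112 against 41.5 and 42.1 in UM-UC-3. With a log2 difference of -0.46 ± 0.03 (SE; limma adjusted p = 1.4e-07), 60 of its 99 bins were lower and 1 was higher. On 18q, the arm of SMAD4, the density was 40.1 and 39.4 in RT112 against 27.6 and 28.0 in UM-UC-3, and on 14q it was 38.4 and 37.8 in RT112 against 27.9 and 28.0 in UM-UC-3. These arms were at an ordinary level in RT112, where 18q ranked 13 and 14q ranked 17 of 40, and among the 5 least dense arms of UM-UC-3. The short arm of chromosome 21 has only 1.43 Mb of called bases; its values were 51.1 and 62.0 in RT112 against 33.7 and 39.4 in UM-UC-3.

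The long arm of chromosome 4 was the most raised. It had a relative density of 17.3 and 15.9 in the RT112 libraries, the lowest of their 40 arms, and of 27.3 and 27.9 in the UM-UC-3 libraries. That is 1.66 times more in UM-UC-3, a log2 difference of 0.70 ± 0.06 (SE; limma adjusted p = 7.5e-07), with 87 of 138 bins called higher and 0 lower. The short arm of the same chromosome went the other way, with 35.9 and 35.5 in RT112 against 26.7 and 26.2 in UM-UC-3 (log2 difference -0.42 ± 0.03, SE; limma adjusted p = 8.5e-08). Within RT112 the long arm of chromosome 4 therefore had 0.464 ± 0.025 (SD, n = 2) times the density of the short arm, and within UM-UC-3 1.04 ± 0.03 (SD, n = 2) times.

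The densest arm of UM-UC-3 was 5p, the arm of TERT, which encodes the catalytic subunit of telomerase. Its relative density was 72.4 and 72.3 in the UM-UC-3 libraries and 52.4 and 56.2 in the RT112 libraries, where it was the densest arm after 20p, 20q, 8q and 21p. The log2 difference was 0.41 ± 0.10 (SE; limma adjusted p = 0.0021), and 27 of 46 bins were higher. This call was lost without either UM-UC-3 library, although the log2 difference was 0.41 without each of them. Among the raised arms, 19p, 12p, 1p and 11p completed the 6 with the largest log2 differences, and the other 11 had values from 0.11 to 0.25. On 12p the density was 37.8 and 38.3 in RT112 against 50.3 and 50.9 in UM-UC-3, and on 1p it was 36.5 and 36.5 in RT112 against 47.1 and 47.4 in UM-UC-3. On 11p it was 35.3 and 34.9 in RT112 against 44.1 and 43.5 in UM-UC-3. The gene-dense arm 19p was sparse in both lines, with 17.4 and 16.4 in RT112 against 24.5 and 25.3 in UM-UC-3, where it was the least dense arm of all.

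The spread over the arms was wider in RT112. The densest arm had 3.91 and 4.54 times the density of the sparsest in the RT112 libraries and 2.95 and 2.86 times in the UM-UC-3 libraries. The ratio of long to short arm, computed for the 18 chromosomes with both, ran from 0.464 on chromosome 4 to 2.38 on chromosome 8 in RT112, and from 0.553 on chromosome 5 to 1.49 on chromosome 8 in UM-UC-3. On chromosome 8 it was 2.31 and 2.45 in the RT112 libraries, against 1.47 and 1.52 in those of UM-UC-3, so that 8q was denser than 8p in both lines and more so in RT112. On chromosome 18 the order of the arms turned: the ratio was 1.19 and 1.18 in RT112 against 0.833 and 0.829 in UM-UC-3. Chromosomes 1 and 11 went the same way, with 1.13 and 1.14, and 1.16 and 1.20, in RT112 against 0.871 and 0.876, and 0.877 and 0.866, in UM-UC-3.

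The peaks of dense and sparse arms of RT112 also differed in their scores and in how often they were found again. Both come from the same lists as the density and are not independent of it. Arms 20p and 4q are its extremes in RT112. In RT112 replicate 1, 13.9% of the 20p peaks and 6.59% of the 4q peaks scored over 10, against 10.1% of all its autosomal peaks. A peak of the other RT112 library overlapped 44.6% of the 20p peaks and 29.9% of the 4q peaks of that library, against 38.2% of all. In UM-UC-3 replicate 1, with a density of 32.4 on 20p and 27.3 on 4q, the shares found again were 75.1% on 20p and 75.3% on 4q. Over 40 arms, the Spearman correlation of the density with the share found again was 0.64 and 0.57 in the RT112 libraries, against 0.32 and 0.16 in those of UM-UC-3. With the share of peaks scoring over 10 it was 0.60 and 0.56 in RT112 against 0.33 and 0.51 in UM-UC-3, so that 1 UM-UC-3 library lay near those of RT112. Denser arms give more peaks for a chance overlap, and the part of that was not tested.

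In single bins the same contrasts were resolved along the chromosomes. Of 2694 bins, 573 (21.3%) were higher in UM-UC-3 and 503 (18.7%) lower (limma, adjusted p under 0.05 over all bins). These counts depended on single libraries: they were 17 and 54 without UM-UC-3 replicate 1, 14 and 56 without UM-UC-3 replicate 2, 862 and 724 without RT112 replicate 1, and 752 and 658 without RT112 replicate 2. The median bin differed by 8.62 units of relative density between the lines, against a median SD of 3.44 between the RT112 replicates and 2.00 between the UM-UC-3 replicates. In 1905 bins (70.7%) the difference of the means was larger than the larger of the 2 SDs. An SD from so few libraries is uncertain, and the share that would meet this by chance was not computed.

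**Figure D2:**
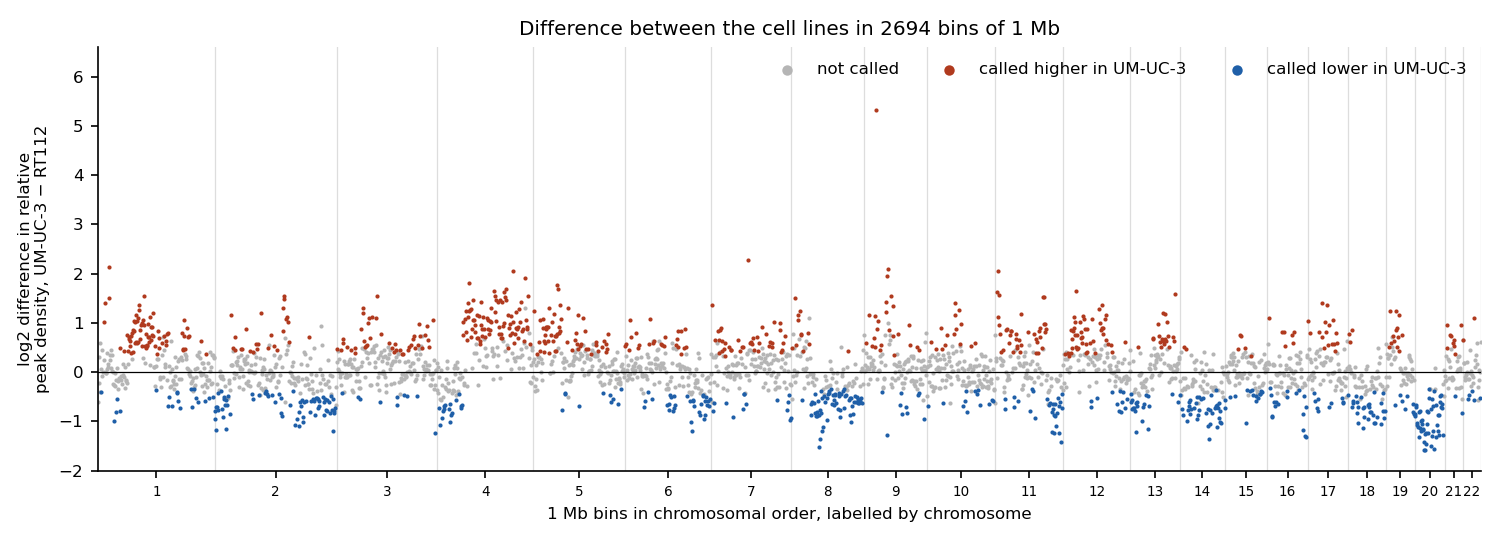
Each point is a 1 Mb bin in chromosomal order (horizontal axis) with its log2 difference in relative density, UM-UC-3 minus RT112 (vertical axis), coloured by its limma call. Bins of 4q lie mostly above 0 and those of chromosome 20 and 8q mostly below it; the point above 5 is a bin of 9p without a peak in either RT112 library.

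The bins called higher in UM-UC-3 had lower medians of GC content and of gene starts. Their median GC content was 37.7% with a median of 3 protein-coding gene starts, against 42.0% and 5 in the bins lower in UM-UC-3, and 40.2% and 5 in all bins. Over the 2694 bins the log2 difference had a Pearson correlation of -0.25 and a Spearman correlation of -0.32 with GC content. With the number of protein-coding gene starts they were only -0.03 and -0.11. Bins are neighbours on the same chromosomes and not independent. The relation of the density itself to GC content depended on the measure: in RT112 the Pearson correlations were -0.04 and 0.03 and the Spearman correlations 0.19 and 0.23, and in UM-UC-3 they were -0.26 in both libraries and -0.07 and -0.08. By either measure the values of UM-UC-3 lay below those of RT112. Library preparation can favour DNA of a given GC content, and its part in these values was not tested. Between replicates the log2 densities of bins correlated with r = 0.89 in RT112 and 0.95 in UM-UC-3, and between lines with 0.58 to 0.63.

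Neighbouring bins moved together. A run was defined as at least 3 consecutive bins in which both UM-UC-3 libraries lay on the same side of both RT112 libraries and the means differed at least 1.5-fold; single bins met this in 435 cases (16.1%) in the direction of UM-UC-3 and in 343 (12.7%) in that of RT112. There were 39 runs raised in UM-UC-3, with 182 bins on 11 chromosomes, and 22 lowered runs, with 120 bins on 9 chromosomes. Chromosome 4 held 15 of the raised runs and 69 of their bins. Chromosome 20 held 4 of the lowered runs and 40 of their bins. Since runs were found from the densities, their values are a description with no test.

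Of the 5 raised runs with the largest summed log2 difference, 3 lay on 4q. The first, at 63 to 71 Mb with the ephrin receptor gene EPHA5, had a relative density of 11.6 and 12.2 in RT112 against 26.9 and 29.5 in UM-UC-3. From 126 to 135 Mb, where SCLT1 lies, it was 13.6 and 13.0 in RT112 against 27.3 and 26.6 in UM-UC-3, and from 101 to 109 Mb, around the B-cell adaptor gene BANK1, 13.0 and 14.6 in RT112 against 28.7 and 28.1 in UM-UC-3. All 3 reached about the density that UM-UC-3 had over the whole of 4q. A run of another kind lay on 1p at 76 to 85 Mb, with the adhesion receptor gene ADGRL2: RT112 was near its own median there, with 33.6 and 31.6, while UM-UC-3 was at 63.7 and 65.2. The last of the 5, on chromosome 9 from 45 to 71 Mb, crosses the centromere gap, and its 7 bins were sparse in both lines, with 6.31 and 3.79 in RT112 against 10.2 and 9.34 in UM-UC-3.

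The longest lowered run covered 27 bins from the tip of 20p across the centromere gap to 31 Mb on 20q. It includes BCL2L1 and MACROD2, a very long gene at a common fragile site. Its relative density was 67.4 and 71.5 in RT112 against 32.2 and 31.9 in UM-UC-3. A second run on chromosome 20, at 45 to 52 Mb with EYA2, had 65.2 and 73.0 in RT112 against 34.0 and 31.8 in UM-UC-3. On 8q, from 52 to 61 Mb around PXDNL, the density was 69.1 and 72.1 in RT112 against 36.1 and 36.8 in UM-UC-3. Over 9 bins of 11q that end at 121 Mb, where the glutamate receptor gene GRIK4 lies, it was 56.3 and 62.7 in RT112 against 31.6 and 30.6 in UM-UC-3. On 14q, from 94 to 100 Mb with the kinase gene VRK1, it was 56.3 and 60.4 in RT112 against 31.4 and 32.5 in UM-UC-3. In all 5 lowered runs RT112 stood well above its median bin, and UM-UC-3 lay close to or a little below its own.

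**Figure D3:**
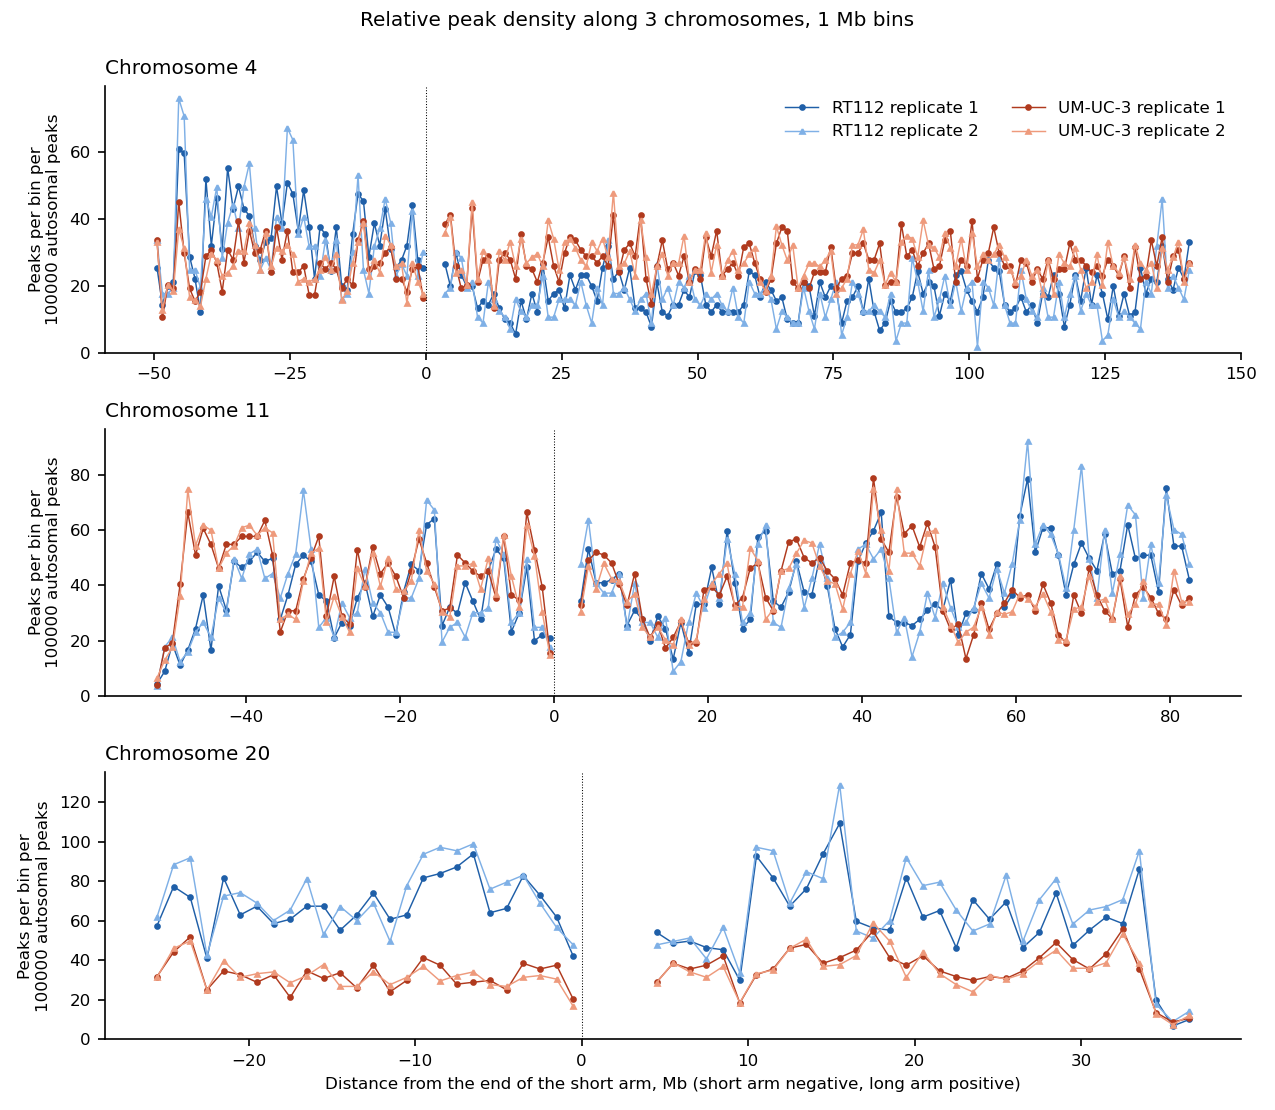
Relative density per 1 Mb bin (vertical axis) along chromosomes 4, 11 and 20 in each library, by distance from the end of the short arm (horizontal axis, Mb; breaks are the centromere gap). On chromosome 4 the RT112 libraries drop on the long arm, on chromosome 11 the lines part toward the end of the long arm, and on chromosome 20 the RT112 libraries lie above UM-UC-3 nearly throughout.

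The difference was also followed along single arms. For each of the 35 arms with at least 30 bins, the point that best split the log2 difference into a lower and a higher side was found, with at least 5 bins on a side. Such a point is returned for every arm, so the splits are a description with no test. In 16 arms (45.7%) this point fell within 1 bin of itself when it was found from the replicate 1 libraries and from the replicate 2 libraries separately. The arms with the largest steps among these, named after their values were seen, were 5q, 11q, 8p, 9p and 2p. On 11q the densities of the bins up to 103 Mb averaged 35.9 and 36.1 in RT112 against 43.1 and 41.6 in UM-UC-3, and those beyond it 48.4 and 50.7 in RT112 against 31.7 and 31.4 in UM-UC-3. The lines thus changed places there. The arm as a whole had a small log2 difference of -0.12, although it was called lower in UM-UC-3 (limma adjusted p = 6.2e-04).

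On 5q the first 8 bins, up to 57 Mb, averaged 18.2 and 15.7 in RT112 against 36.9 and 35.8 in UM-UC-3. The other 124 bins averaged 37.4 and 36.0 in RT112 against 40.0 and 40.0 in UM-UC-3, so the step was one of RT112. On 8p the change came at 38 Mb, the bin that holds FGFR1: RT112 went from 22.7 and 22.01 to 36.8 and 36.3 over the last 6 bins of the arm, and UM-UC-3 from 28.3 and 27.7 to 27.2 and 26.4. On 2p it came at 31 Mb, where UM-UC-3 went from 29.7 and 29.5 to 39.4 and 40.5 and RT112 from 43.3 and 43.0 to 37.6 and 36.6. The split of 9p fell at 41 Mb, at bins beside the centromere gap that were sparse in both lines. On 1p, where the separate replicates put it 2 bins apart, UM-UC-3 went from 31.3 and 31.4 before 56 Mb to 60.2 and 60.7 after it, and RT112 from 33.1 and 33.0 to 39.0 and 39.3.

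A single long gap stood out among the stretches without peaks. In RT112, 20 stretches of at least 500 kb of called bases held no peak of either library, and 7 of these held at least 5 peaks in each UM-UC-3 library. In UM-UC-3 there were 5 such stretches, and 0 held at least 5 peaks in each RT112 library. The lists were not cut to equal length for this, and those of RT112 are shorter, which by itself favours passing gaps in RT112. The part of list length in these counts was not tested. The counts of RT112 depend on its lists: 76 stretches passed from replicate 2 alone and 12 from replicate 1 alone. As they were found from the peaks themselves, the stretches too carry no test.

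The longest RT112 stretch ran from 21778238 to 23468096 on chromosome 9, with 1690 kb of called bases. It held 0 and 0 peaks in the RT112 libraries, against 65 and 69 in those of UM-UC-3. Its 4 protein-coding genes are MTAP, an enzyme of methionine salvage, CDKN2A and CDKN2B, which encode inhibitors of cyclin-dependent kinases, and DMRTA1. The relative density of UM-UC-3 in it was 37.0 and 37.6 per Mb, close to the median bin of that line. The RT112 count of 0 was set by how the stretch was found, between RT112 peaks, so no lower limit of the fold is given. In the 500 kb before the stretch there were 6 and 3 peaks in RT112 against 12 and 18 in UM-UC-3. In the 500 kb after it there were 15 and 10 in RT112 against 18 and 16 in UM-UC-3. These flank counts are not scaled, and the RT112 lists are shorter, so they overstate a deficit of RT112. The chromosome 9 peak printed above lies inside the stretch, near its far end.

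**Figure D4:**
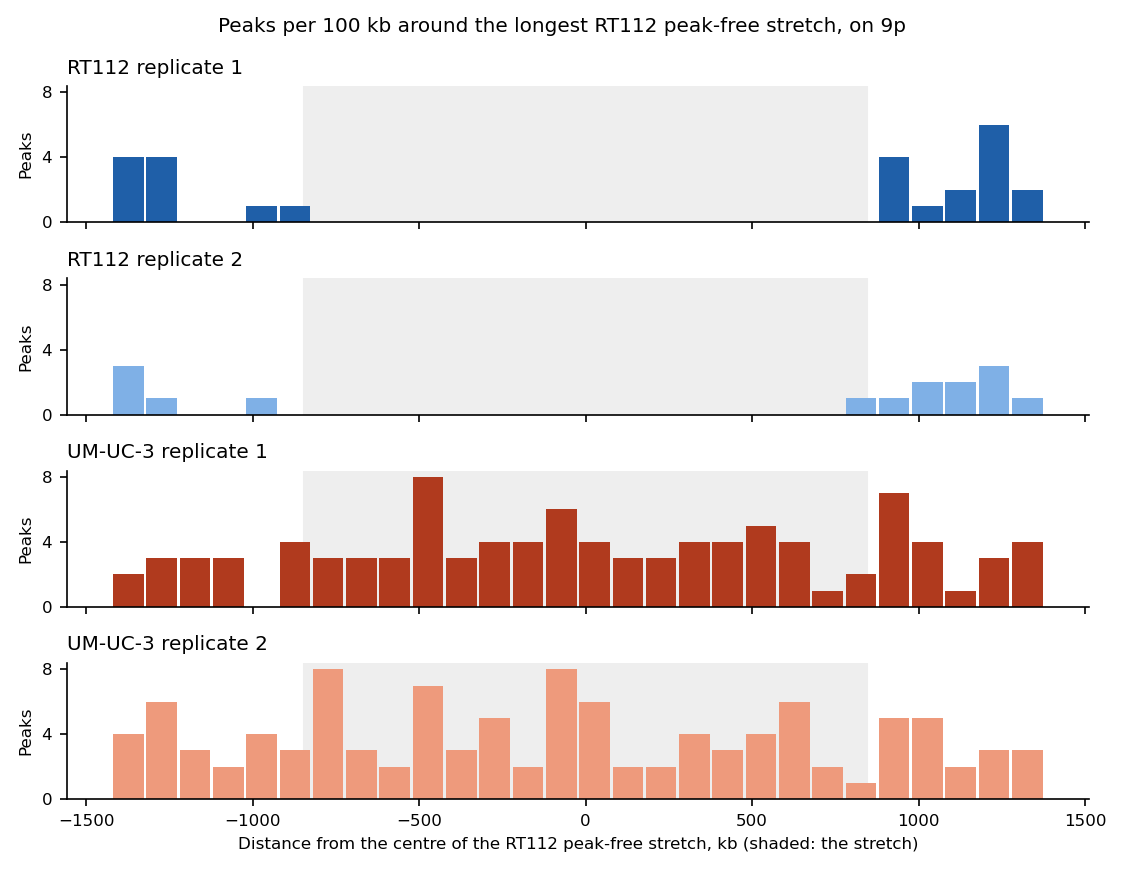
Peaks per 100 kb (bars, vertical axis) in each library by distance from the centre of the stretch in kb (horizontal axis); shading marks the stretch. Both RT112 libraries are empty over 1690 kb, in which UM-UC-3 has 65 and 69 peaks.

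The other passing RT112 stretches held far fewer UM-UC-3 peaks, between 5 and 12 a library. Of these, 3 lay beside or across the centromere of chromosome 9, at 42735735 to 43526567, 45604130 to 46753164 and 46753430 to 66465470. One at 69379347 to 70672651 on chromosome 5 holds NAIP, in a region of near-identical copies where reads are hard to place. On 5p, the densest arm of UM-UC-3, 901469 to 1453517 contains TERT and had 5 and 5 UM-UC-3 peaks. The last, at 88674041 to 89219211 on chromosome 16, holds CBFA2T3, a transcriptional corepressor gene. Of the RT112 stretches that did not pass, the longest were at 40569184 to 41821926 on chromosome 9 near ZNF658, with 4 and 2 UM-UC-3 peaks, and at 258131 to 951773 on chromosome 11, a gene-dense region with DEAF1, with 3 and 6. Just outside the limit, the UM-UC-3 stretch at 141019063 to 141585783 on chromosome 2, inside the very long gene LRP1B, had 4 and 4 RT112 peaks. The longest stretch of UM-UC-3, with 653 kb of called bases at 68805876 to 69459136 on chromosome 5, held 1 and 1 RT112 peaks. The others, at 39129969 to 39816222 and 65580465 to 66169879 on chromosome 9 and at 1134730 to 1769177 on chromosome 16 with the ciliary gene IFT140, held at most 3 in a library.

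Windows of 500 kb on both sides of genes at loci often altered in bladder cancer were then compared. Of 19229 protein-coding genes with such a window, UM-UC-3 lay above RT112 without overlap in 7112 (37.0%) and below it in 6475 (33.7%), with a median log2 difference of 0.03. Of 22 genes at loci often gained, 10 lay above, 7 below and 5 overlapped, with a median log2 difference of 0.07. Of 21 genes at loci often lost, 13 lay above, 4 below and 4 overlapped, with a median of 0.37. Both lists hold neighbours that share peaks, CDKN2A, CDKN2B and MTAP among them, and these counts carry no test.

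The lost loci include CDKN2A, which both lines have been described as lacking. The CDKN2A window held 2 and 1 peaks in the RT112 libraries, against 36 and 40 in those of UM-UC-3. Scaled to relative density, that was 2.15 and 1.72 in RT112 against 33.7 and 35.9 in UM-UC-3. Within the gene itself there were 0 and 0 peaks in RT112 against 1 and 1 in UM-UC-3, where the longest peak-free stretch over the gene was 63.6 kb. Those UM-UC-3 peaks scored 3.88 and 3.85, which was the median score of the autosomal peaks in each library. The fusion of FGFR3 and TACC3 falls in a sparse, gene-dense region at the end of 4p, where the FGFR3 window had 11 and 7 peaks in RT112 against 14 and 18 in UM-UC-3.

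**Figure D5:**
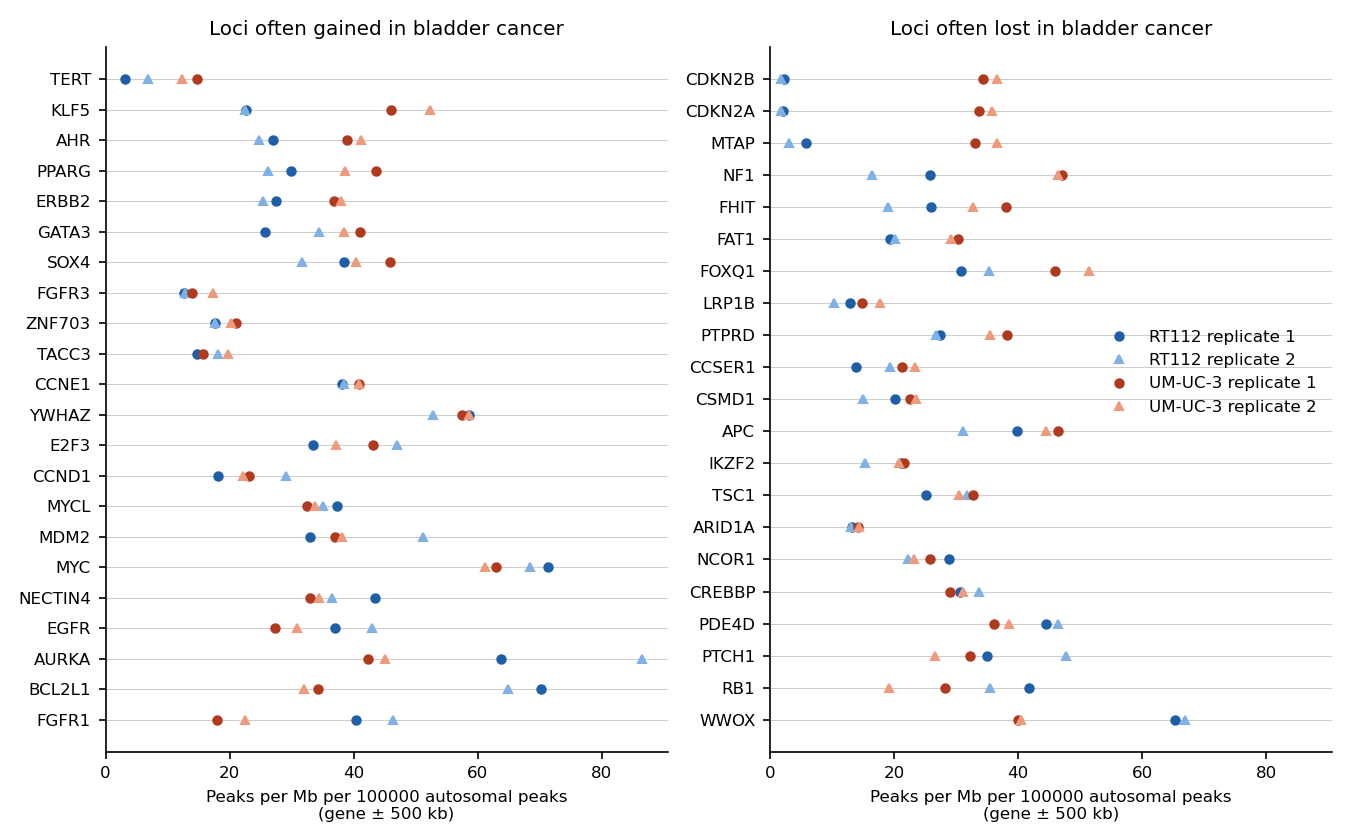
Relative density within 500 kb of each gene (horizontal axis, peaks per Mb per 100000 autosomal peaks) for loci often gained (left) and often lost (right), 1 point per library, genes ordered by the log2 difference. CDKN2A, CDKN2B and MTAP lie near 0 in RT112 alone; FGFR1, BCL2L1, AURKA and WWOX lie higher in RT112.

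Among the other lost loci, UM-UC-3 was higher at NF1, a tumour suppressor gene, with 25.7 and 16.5 in RT112 against 47.0 and 46.5 in UM-UC-3. It was higher at FHIT, a fragile-site gene on 3p, with 26.0 and 19.1 in RT112 against 38.0 and 32.7 in UM-UC-3, and at FAT1 on 4q, with 19.4 and 20.2 in RT112 against 30.4 and 29.1 in UM-UC-3. It was lower at WWOX, the fragile-site gene of 16q, with 65.4 and 66.9 in RT112 against 40.0 and 40.5 in UM-UC-3. At RB1, the retinoblastoma gene, RT112 had 41.8 and 35.5 and UM-UC-3 28.2 and 19.2. The pairs of the lines did not overlap at any of these 5 genes. Of the remaining lost loci, FOXQ1, LRP1B, PTPRD, CCSER1, CSMD1, APC and ARID1A lay higher in UM-UC-3, with log2 differences from 0.11 to 0.55, PDE4D and PTCH1 lay lower, at -0.28 and -0.48, and IKZF2, TSC1, CREBBP and NCOR1 overlapped.

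Among the gained loci, the growth factor receptor genes went both ways. At FGFR1 the relative density was 40.3 and 46.3 in RT112 against 18.0 and 22.4 in UM-UC-3, the lowest log2 difference of the list at -1.06. EGFR was lower in UM-UC-3 too, with 37.1 and 43.0 in RT112 against 27.4 and 30.9 in UM-UC-3, whereas ERBB2 was higher, with 27.6 and 25.4 in RT112 against 36.9 and 38.0 in UM-UC-3. ZNF703, less than 1 Mb from FGFR1 on 8p and on the other side of the step described above, had 17.6 and 17.6 in RT112 against 21.0 and 20.2 in UM-UC-3. Of the urothelial transcription factor genes, KLF5 had 22.7 and 22.5 in RT112 against 46.0 and 52.2 in UM-UC-3, and PPARG had 29.9 and 26.2 in RT112 against 43.6 and 38.5 in UM-UC-3. At GATA3 the values were 25.7 and 34.3 in RT112 against 41.0 and 38.5 in UM-UC-3.

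Of the growth and cell cycle genes, MYC had 71.3 and 68.5 in RT112 against 62.9 and 61.2 in UM-UC-3, so that both lines were well above their median bin. BCL2L1 had 70.2 and 64.9 in RT112 against 34.3 and 32.0 in UM-UC-3, and AURKA had 63.7 and 86.4 in RT112 against 42.3 and 45.0 in UM-UC-3, both as on the rest of chromosome 20. AHR, SOX4 and CCNE1 lay higher in UM-UC-3, with log2 differences from 0.09 to 0.61, and NECTIN4 and MYCL lower, at -0.24 and -0.12. The windows of CCND1, E2F3, MDM2, TACC3 and YWHAZ overlapped between the lines. TERT had the highest log2 difference of the list on few peaks, 3 and 4 in RT112 against 16 and 14 in UM-UC-3. Scaled to relative density, these were 3.18 and 6.79 in RT112 against 14.8 and 12.4 in UM-UC-3. PLAU, which encodes the urokinase-type plasminogen activator, a target of PAI-1, had 30.7 and 28.1 in RT112 against 34.3 and 32.9 in UM-UC-3.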

How the data were processed

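PAI-1 ChIP was carried out by the authors with a magnetic bead kit and the anti-PAI-1 antibody clone 3F2 on RT112 and UM-UC-3, and the sample labels gave the groups and the replicate numbers. Per the labels, the submitters' processing notes name FastQC, Trimmomatic, Bowtie 1.1.1, Picard, MACS2 2.1.0.20140616 and hg19, and the methods of the study state removal of PCR duplicates. The deposited lists, 1 per ChIP library, give each peak's interval and a score, taken to be on the −log10 scale of p or q values; its type, the control, the threshold and any pooling of replicates are not given in the sources used here. The lists hold no read counts, so the read depth is unknown and counting error has no interval here. Whether input served as the control decides how far copy number enters the peak calls, and this was not tested.

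Identical intervals were counted once. Peak midpoints were counted in 1 Mb bins with at least 50% called bases, and in arms split at the longest run of N of at least 2.9 Mb that does not begin at base 1. Counts were divided by the autosomal total, and log2(value + 1) was fitted with limma 3.58.1 (R 4.3.3, eBayes with a trend, no replicate block), two-sided, with Benjamini-Hochberg adjustment at 0.05. A log2 difference on this scale understates the change of low values. Deviations of same-numbered libraries from their group means had r = 0.0016 over bins, so the numbers were not treated as pairs. The fit was also run on simulated counts with independent bins. Neighbouring bins of these data moved together, so that run is no support for the calls. Gene positions came from GENCODE 44 mapped to GRCh37. Python 3.11.15, numpy 2.4.6, pandas 2.3.3, scipy 1.17.1, pysam 0.24.0 and matplotlib 3.10.9 were used.

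Named arms were the called arms, at most 6 a direction by size of the log2 difference; named runs were the 5 with the largest summed log2 difference in each direction; named stretches were the 6 longest of each cell line and those that passed. Within these, genes of the 2 lists of loci were named, otherwise the longest protein-coding gene inside. Sequences were the peak with the highest score in the first 2 named runs of each direction outside chromosome 8. Some items that these rules named are not reported here, and the lists of loci are counted without them. The regions, lists and rules were chosen with earlier results of these data known. The alternatives were the scaling, the pseudocount, the trend, subsets by score, bin size, called bases, the limits of runs and stretches, the replicate block and leaving out each library.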

Additional observations from a re-analysis of the deposited data

How the results depend on the processing

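The counts of called bins moved most. Bins higher and lower in UM-UC-3 numbered 350 and 324 with the 25% of peaks with the highest score, 195 and 208 with lists cut to equal length by score, and 369 and 330 with 2 Mb bins. Leaving out 1 library gave 14 to 862 and 54 to 724 bins, and the cause was not tested. Of 1076 called bins, 368 were still called in the same direction with lists of equal length and 486 with the highest scores. Direction alone was kept by 1063 and 1003. The bins were chosen for their differences and the subsets share their peaks, so keeping the direction carries little weight. Arms called higher fell to 9 with lists of equal length. Leaving out 1 library gave 15 to 18 arms higher and 13 to 17 lower. Runs raised and lowered numbered 8 and 2 at 2-fold, 17 and 9 with at least 5 bins and 101 and 71 with 500 kb bins, and 38 lowered runs were found with the highest scores. RT112 peak-free stretches numbered 45 from 300 kb, 3 from 1 Mb and 1 with at least 10 UM-UC-3 peaks a library, and 8 to 76 without 1 library; those of UM-UC-3 numbered 0 to 1 without 1 library. With the replicate block, 620 and 538 bins and 18 and 14 arms were called; the numbers are not known to pair the libraries. Of 144 values of the named arms over 12 alternatives, 142 kept direction and call, 2 lost the call and 0 reversed. These arms were named for their large differences, and every alternative draws on the same peak lists, so this agreement carries no separate weight. The peaks of RT112 replicate 2, the shortest list, limit what bins can resolve in that line.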
